A study of Homo sapiens with 6 samples.

Results

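The genes described here encode the proteins of the cytosolic ribosome. They were chosen by symbol, as RPL or RPS with a number and an optional suffix A, X, L, AL or L1, together with RPLP0, RPLP1, RPLP2 and RPSA. Pseudogenes, RPS6 kinase genes and Y-linked copies were left out. The rule found 85 genes among 25202 rows of the count table, 53 of the large and 32 of the small subunit. Of these, 77 were core genes and 8 were paralogs, which carry the suffix L, AL or L1. The cells were Huh7, an established human hepatoma line, sequenced as 3 libraries labelled knockout and 3 labelled wild type. Knockout cells carried a guide against HNRNPA2B1, an RNA-binding protein of the hnRNP family that acts in splicing and RNA transport. Control cells carried the guide labelled sgNC. The labels give no clone or pool for either group and no other treatment than culture. Nothing says that the libraries of a group are separate cultures. The p-values then reflect only how far these libraries differ from each other, a spread that may be technical.

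A ribosome holds one copy of nearly every ribosomal protein, and cells make these proteins in matched amounts, since unassembled ones are degraded. The mRNAs are among the most abundant in dividing cells. Most begin with a run of C and T bases, the 5′ terminal oligopyrimidine tract, through which mTOR signalling and the RNA-binding protein LARP1 control their translation and stability.

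The start of several of these mRNAs is shown because the tract is the sequence feature most of them share. The lines cover genes with the largest falls and genes that were not called. Each line is 30 bases of the coding strand around a start annotated by RefSeq on GRCh38.p14. Capitals mark the longest run of C and T bases that opens with C. In RPS26 and RPS15 that run is 5 and 6 bases long and opens 6 and 9 bases past the annotated start. The marked runs of RPS15 and RPL39 reach the end of the window. The first 5 genes were lower in knockout libraries, both on the whole-library scale and against the summed ribosomal protein counts. The last 3 overlapped the control libraries on the whole-library scale and were not called there.
RPS26 (chr12:56041903-56041932, plus strand): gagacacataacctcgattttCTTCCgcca
RPL28 (chr19:55385917-55385946, plus strand): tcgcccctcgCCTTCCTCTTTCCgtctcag
RPS15 (chr19:1438381-1438410, plus strand): tgcgcaggcgcggaccaaagcgatCTCTTC
RPL36A (chrX:101390996-101391025, plus strand): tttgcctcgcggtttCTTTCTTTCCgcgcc
RPL35 (chr9:124861943-124861972, minus strand): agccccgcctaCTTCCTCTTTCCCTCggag
RPS12 (chr6:132814554-132814583, plus strand): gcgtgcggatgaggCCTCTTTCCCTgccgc
RPLP1 (chr15:69452803-69452832, plus strand): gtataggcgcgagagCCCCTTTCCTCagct
RPL39 (chrX:119791616-119791645, minus strand): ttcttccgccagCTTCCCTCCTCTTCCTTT

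A run of at least 10 such bases lay in the start window of 45 of 68 ribosomal protein genes with a RefSeq window (66.2%). The share over protein-coding genes with windows of the same length was 7.32% (1160 of 15842), taking each gene's longest run on the coding strand. A run that reached the end of the window was counted only by the part inside it, in both sets. RPS15, RPL9, RPL15 and RPL27 had such cut runs and were counted as under 10 bases, so run lengths here are minimum values. A run of at least 5 was found in 61 of the 68 genes, or 89.7%, against 46.6% of protein-coding genes. Of the genes called lower below, 12 of the 20 with a window had a run of at least 10 bases, as had 33 of the 47 that were not called. RPS26, with the largest fall, had a run of 5 bases, and RPS12, with the highest uncalled value, had 11. Across the 67 tested genes with a window, the length of the run correlated weakly with the log2 fold change (Pearson's r 0.17, Spearman's rho 0.11; genes of the same 6 libraries, no test).

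Library totals were 36809274, 32702480 and 34273448 counts in knockout replicates 1, 2 and 3 and 38870244, 32690070 and 32517757 in control replicates 1, 2 and 3. The targeted gene, HNRNPA2B1, had 8729, 8232 and 8364 counts in the knockout libraries and 40867, 32755 and 44149 in the control libraries, so both groups fitted their labels. Over 16331 tested genes, 19% were called lower and 21.1% higher in knockout libraries at an adjusted p under 0.05 (edgeR, quasi-likelihood test). Among the 3879 genes with a mean log2 CPM (counts scaled to library size) of 6 or more, where most ribosomal protein genes lie, 38.3% were called lower and 11.6% higher. Hepatocyte markers were present, with ALB at 2979 ± 119 CPM in knockout libraries and 4899 ± 902 CPM in control libraries (SD, n = 3 each), and 13 of 14 were called lower. Markers of other cells summed, in CPM of whole libraries, to 9.25 to 28.0 in knockout and 1.78 to 2.84 in control libraries for 8 fibroblast genes. The sums were 236 to 249 in knockout and 471 to 540 in control libraries for 8 immune genes, and 33.7 to 38.0 and 52.2 to 65.3 for 6 endothelial genes. LRAT, NKG7 and CLEC4G of those lists were at 0 in every library; the part of these lists in the results below was not tested. In bulk RNA, fewer cells expressing a gene and less RNA per cell cannot be told apart.

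Ribosomal protein mRNAs were lower in knockout libraries for 28 of 84 tested genes (33.3%), and none was higher. The share is above the 19% of all genes and below the 38.3% of abundant genes called lower. The list's median log2 fold change was −0.24, against 0.053 over all tested genes and −0.21 over abundant genes. At an unadjusted p below 0.05, 38 genes were lower and 0 higher, and DESeq2 called 38 lower and 0 higher. The shares of all genes under these criteria were not counted, and the shares above belong to another threshold or test. The knockout libraries lay wholly below the control libraries for 30 genes, wholly above for 1, RPL37, and overlapped them for 53. Over all tested genes 24.8% lay below and 29.6% above. Of the 3879 abundant genes, 1808 lay below and 623 above, a larger share below than among the ribosomal protein genes. The median turned to 0.043 when libraries were aligned by cyclic loess, which called 11 genes lower and 4 higher. RPL10L, a paralog active mainly in testis, had too few counts to test, with 13, 0 and 7 in knockout and 10, 2 and 0 in control libraries.

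The large and the small subunit were set side by side. The large subunit had 18 of 52 genes lower (34.6%), with a median log2 fold change of −0.27. The small subunit had 10 of 32 lower (31.2%), with a median of −0.16. The large-subunit median was below the small-subunit median by 0.10 on the log2 scale, and by 0.033 to 0.22 under the other settings tried. The large-to-small ratio of summed counts was 1.79, 1.79 and 1.77 in knockout libraries and 1.69, 1.82 and 1.77 in control libraries, so the knockout values lay within the control range.

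**Figure D1:**
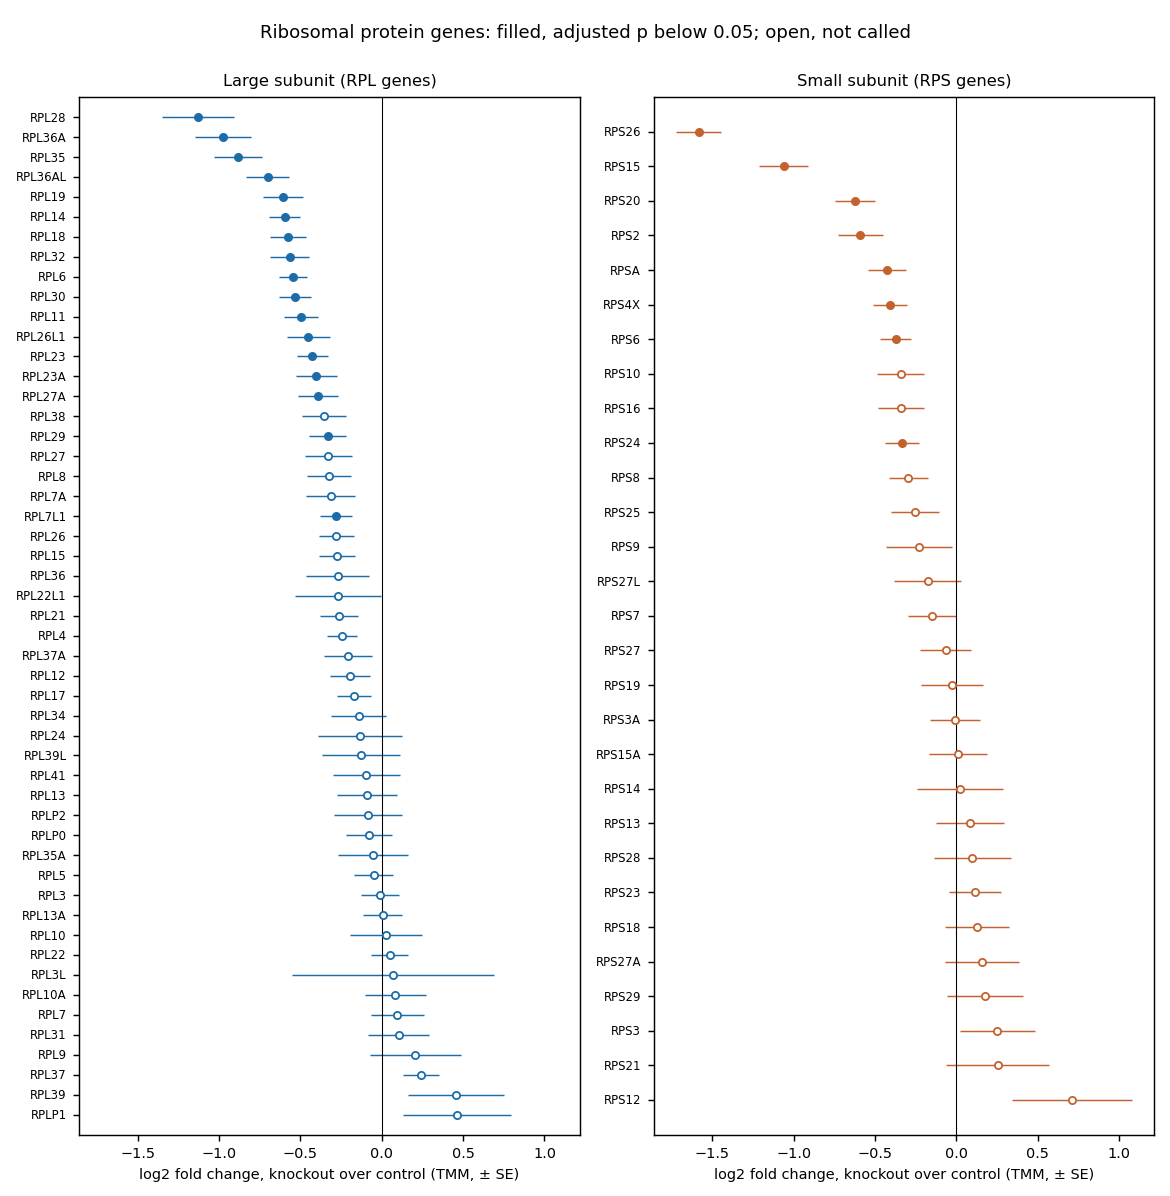
Log2 fold change, knockout over control on the TMM scale, of the tested ribosomal protein genes shown here (x axis, ± SE; genes down the y axis), large subunit at the left and small subunit at the right. Filled points were called at an edgeR adjusted p below 0.05, and all of them lie below 0, with RPS26 lowest at −1.58 and the highest open point, RPS12, at 0.71.

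All ribosomal protein genes together held 4.82%, 4.69% and 5.24% of the counts in knockout libraries and 5.70%, 5.48% and 4.42% in control libraries. The knockout values lay between the lowest and highest control value. On the TMM scale the sums were 44720, 43670 and 50216 CPM in knockout and 59662, 58580 and 47798 CPM in control libraries. Control replicate 3 was the low control on both scales.

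RPS26 fell most. The protein lies at the mRNA exit channel of the small subunit, and its gene is one of those mutated in Diamond-Blackfan anaemia. RPS26 had 114, 98.1 and 131 CPM in knockout libraries and 299, 376 and 352 CPM in control libraries. The highest knockout library was far below the lowest control library. The log2 fold change was −1.58 ± 0.14 (SE; edgeR adjusted p = 2.59e-05), a level 3.00-fold higher in control libraries. Every 50-base stretch of its coding sequence also occurs in the transcript of another annotated gene, so reads could be split between copies.

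RPL28 is a large-subunit protein that budding yeast lacks. It had 463, 442 and 504 CPM in knockout libraries and 617, 1176 and 1292 CPM in control libraries. The groups did not overlap, although control replicate 1 stood nearer to the knockout libraries than to the other controls. The log2 fold change was −1.13 ± 0.22 (edgeR adjusted p = 0.00306), and it ran from −0.75 to −1.43 over the other settings. Only 8.84% of its coding 50-base stretches occur elsewhere.

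RPS15 sits in the head of the small subunit, where its tail reaches toward the decoding site. It had 365, 353 and 410 CPM in knockout libraries and 602, 923 and 829 CPM in control libraries, without overlap (log2 fold change −1.06 ± 0.15, edgeR adjusted p = 0.000495). RPL36A, which lies near the exit site for transfer RNA, had 177, 162 and 199 CPM in knockout libraries and 257, 375 and 425 CPM in control libraries. Its log2 fold change was −0.97 ± 0.17 (edgeR adjusted p = 0.00162), with control replicate 1 again the lowest control. RPL35, at the rim of the peptide exit tunnel, had 270, 257 and 297 CPM in knockout libraries and 460, 632 and 430 CPM in control libraries. All 3 knockout libraries were below every control library, and the log2 fold change was −0.89 ± 0.15 (edgeR adjusted p = 0.00119). RPL36A shares all of its coding 50-base stretches with other annotated transcripts, RPS15 61.9% and RPL35 45.3%.

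The next falls were smaller. RPL36AL, a paralog of RPL36A, had a log2 fold change of −0.70, and RPS20, a small-subunit protein, had one of −0.62. RPL14, a large-subunit protein, had 592, 583 and 659 CPM in knockout libraries and 884, 942 and 951 CPM in control libraries (log2 fold change −0.60 ± 0.10, edgeR adjusted p = 0.000994). RPL6 had 801, 793 and 835 CPM in knockout libraries and 1145, 1195 and 1206 CPM in control libraries (log2 fold change −0.55 ± 0.09, edgeR adjusted p = 0.001). In both genes the spread within each group was small beside the gap between the groups. Under all 20 other settings, 10 of the 28 genes kept their call, among them RPL14, RPL28, RPL30, RPL35, RPL36A, RPL36AL, RPS15 and RPS26. RPL6, RPL11, RPL18, RPL19, RPL32, RPS2 and RPS20 lost theirs under cyclic loess alone.

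**Figure D2:**
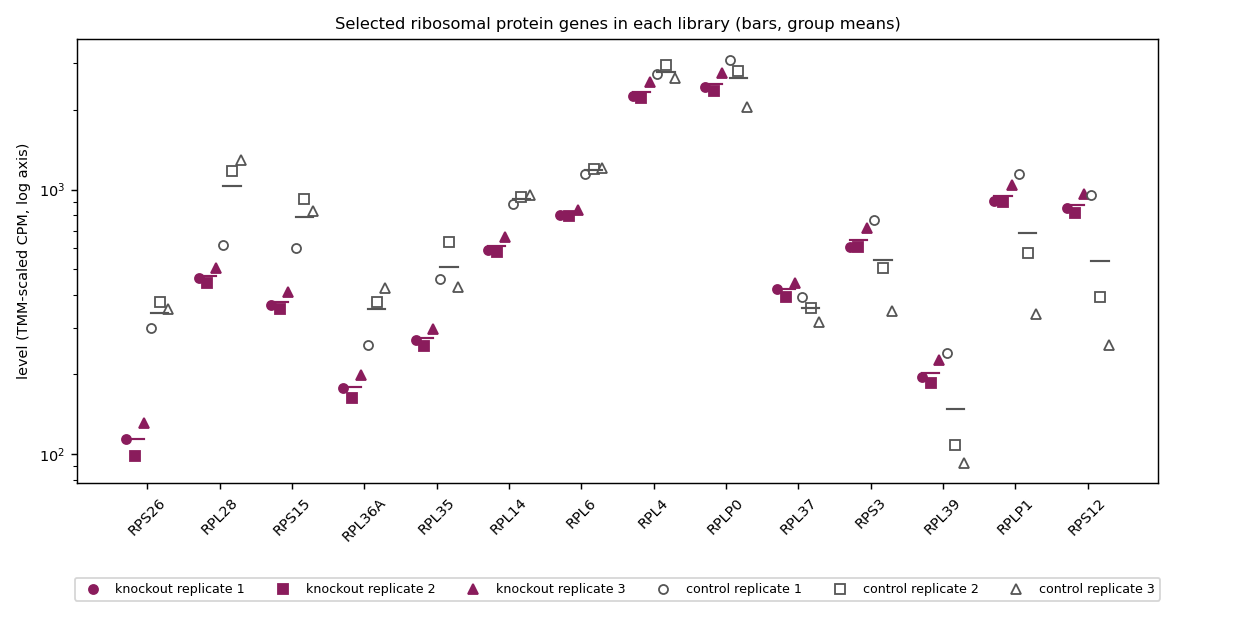
Level in TMM-scaled CPM (y axis, log scale) of 14 ribosomal protein genes in each library, knockout filled and control open, with bars at the group means. RPS26 has 98.1 to 131 CPM in knockout and 299 to 376 CPM in control libraries, while the knockout libraries of RPS12, at 816 to 964 CPM, overlap its control libraries, at 259 to 957 CPM.

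Because all of these proteins enter one particle, each gene was also tested against the summed ribosomal protein counts of its library, which no scaling of whole libraries can move. On that scale 6.01% of all genes were lower and 28.2% higher in knockout libraries. Of the 84 tested ribosomal protein genes, 5 were lower, near the share of all genes, and 2 higher, well under that share. These genes are tested against a sum of their own counts, so their log2 fold changes centre near 0 by construction. Their median was 0.034, against 0.31 over all tested genes. The 5 lower ones were RPS26, RPL28, RPS15, RPL36A and RPL35, with log2 fold changes of −1.35, −0.91, −0.82, −0.75 and −0.62. RPS26 made up 0.255%, 0.225% and 0.260% of the summed counts in knockout libraries and 0.501%, 0.642% and 0.737% in control libraries (log2 fold change −1.35 ± 0.17, edgeR adjusted p = 0.000246). The groups did not overlap, and the call held under all 15 other settings run on that scale. RPL28 made up 1.04%, 1.01% and 1.00% in knockout libraries and 1.03%, 2.01% and 2.70% in control libraries, so control replicate 1 lay among the knockout libraries. Its call against the sum was lost when any one knockout library was left out (adjusted p = 0.0692, 0.0707 and 0.0796) and without control replicate 2 (0.0547). RPL36A also lost its call against the sum without any one knockout library (edgeR adjusted p = 0.0752, 0.0850 and 0.0720), whereas RPS15 and RPL35 kept theirs under all settings. Without knockout replicate 1, 2 or 3 the log2 fold change was −0.93, −0.91 and −0.90 for RPL28 and −0.77, −0.72 and −0.77 for RPL36A. These values stayed near those of the full fit.

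RPL37, a zinc-binding large-subunit protein, was one of the 2 genes higher against the sum. It made up 0.943%, 0.901% and 0.884% of the summed counts in knockout libraries and 0.658%, 0.608% and 0.663% in control libraries, so all knockout libraries were higher. The log2 fold change was 0.50 ± 0.12 (edgeR adjusted p = 0.0107). It lost this call without knockout replicate 1 (edgeR adjusted p = 0.0780) or 2 (0.0574), at log2 fold changes of 0.47 and 0.51. On the whole-library scale RPL37 had 422, 394 and 444 CPM in knockout libraries and 393, 356 and 317 CPM in control libraries, a log2 fold change of 0.24 ± 0.11 that did not pass (edgeR adjusted p = 0.107).

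RPS12, a protein of the small-subunit head, was the other. It made up 1.90%, 1.87% and 1.92% of the summed counts in knockout libraries and 1.60%, 0.668% and 0.541% in control libraries (log2 fold change 1.02 ± 0.33, edgeR adjusted p = 0.0348). Control replicate 1 stood close to the knockout libraries and far from the other 2 controls. The call was lost without any one knockout library (edgeR adjusted p = 0.0806, 0.0736 and 0.0901), without control replicate 2 (0.102) and with DESeq2 (0.105). The log2 fold change was 1.01, 1.03 and 1.01 without knockout replicate 1, 2 or 3 and 0.82 without control replicate 2. On the whole-library scale RPS12 had 851, 816 and 964 CPM in knockout libraries and 957, 392 and 259 CPM in control libraries, which overlapped (log2 fold change 0.71 ± 0.37, edgeR adjusted p = 0.149).

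The spread of RPS12 between controls was the largest of a pattern that ran through the ribosomal protein genes. Control replicate 3 was the lowest control for 63 of 84 genes (75.0%) and control replicate 1 the highest for 50 (59.5%), against 34.8% and 32.3% of all tested genes. The ratio of the highest to the lowest library of a group had a median of 1.16 in knockout and 1.46 in control libraries. Over all tested genes these medians were 1.16 in knockout and 1.38 in control libraries, and over abundant genes 1.08 and 1.28. Among the controls it reached 2 or more for 17 ribosomal protein genes (20.2%), against 14% of all tested genes and 1.62% of abundant ones, and it was highest for RPS12, at 3.70. For 73 of the 84 genes (86.9%) the spread was narrower among the knockout libraries than among the controls, as it was for 75.9% of all tested genes and 91.5% of abundant ones. The share of mitochondrially encoded RNA was 2.15%, 2.78% and 2.51% in knockout libraries and 2.01%, 3.06% and 4.70% in control replicates 1, 2 and 3; its part in this spread was not tested.

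RPLP1, an acidic protein of the stalk that recruits elongation factors, showed the same order of controls. It had 903, 901 and 1041 CPM in knockout libraries and 1148, 576 and 340 CPM in control libraries, and the log2 fold change of 0.46 ± 0.33 did not pass (edgeR adjusted p = 0.290). RPL39, a small protein of the exit tunnel wall, had 195, 186 and 227 CPM in knockout libraries and 242, 108 and 92.7 CPM in control libraries (log2 fold change 0.46 ± 0.30, edgeR adjusted p = 0.245). In both genes the knockout libraries lay just below control replicate 1 and well above the other 2 controls. RPS21, at 109, 110 and 128 CPM in knockout libraries and 160, 77.7 and 52.3 CPM in control libraries, followed the same order.

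**Figure D3:**
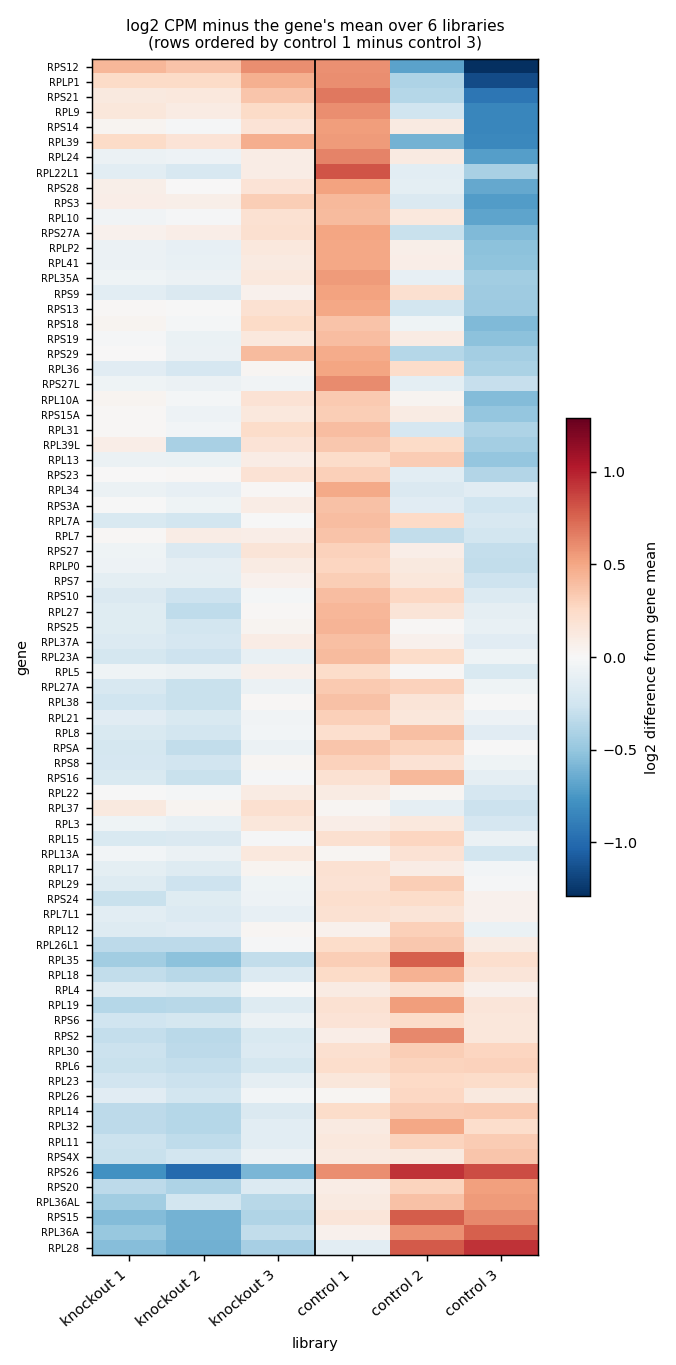
Log2 CPM minus the mean of the gene over 6 libraries (colour) for the ribosomal protein genes shown here except RPL3L, which was under 1 CPM, with libraries along the x axis and genes down the y axis. Control replicates 1 and 3 part in opposite directions at the top of the map (RPS12, 957 and 259 CPM). Near the bottom control replicate 3 is above control replicate 1 (RPL28, 1292 and 617 CPM). There the 3 controls lie above the knockout libraries (RPS26, 299 to 376 CPM).

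The calls ran with this control pattern. Control replicate 1 was at least 2-fold over control replicate 3 for 15 genes, and none of them was called. Control replicate 3 was above control replicate 1 for 19 genes, of which 17 were called lower. Of the other 50 genes, 11 were called lower. Across the 84 genes the log2 ratio of control replicate 1 to control replicate 3 correlated with the log2 fold change (Pearson's r 0.79, Spearman's rho 0.79), but both quantities share the control libraries, so their relation is a description only. The calls changed when single libraries were left out. Without control replicate 1, 29 genes were lower and 11 higher: RPL7, RPL9, RPL31, RPL39, RPLP1, RPS3, RPS12, RPS13, RPS21, RPS27A and RPS29. Without control replicate 3, 45 were lower and 0 higher. Without knockout replicate 1 or 2, the small subunit had 6 lower genes in place of 10. RPS26 kept its call in each of these fits and under all 20 other settings, with edgeR, limma or DESeq2 adjusted p-values up to 0.000342.

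**Figure D4:**
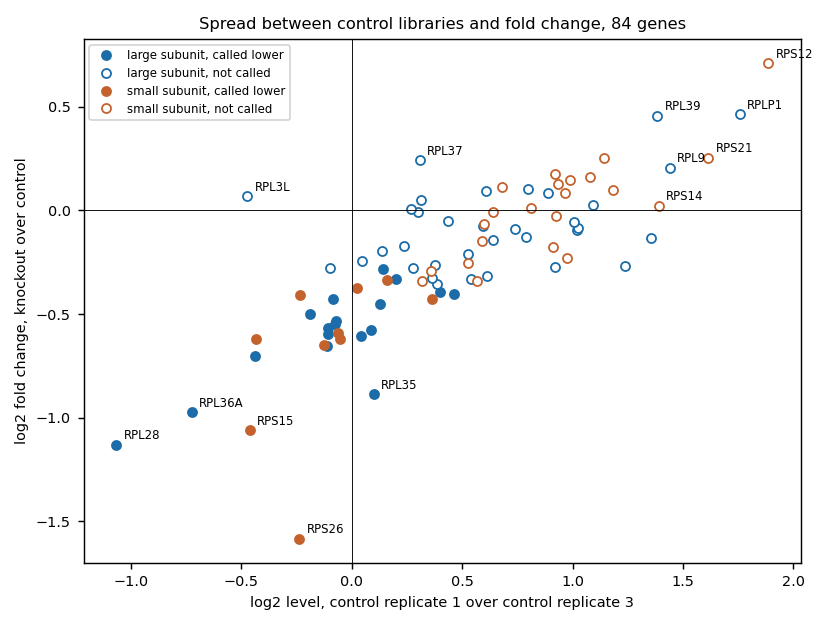
Each of the 84 tested ribosomal protein genes by the log2 ratio of control replicate 1 to control replicate 3 (x axis) and its log2 fold change, knockout over control (y axis); filled points were called lower, and colour gives the subunit. Of the genes called lower, 17 lie left of 0 on the x axis and 11 to the right of it. The 15 genes with control replicate 1 at least 2-fold over control replicate 3 are open at the right, and both axes use the same control libraries.

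Coding length, GC content and sequence shared with other transcripts gave little separation between called and uncalled genes. The median coding length was 471 nt in the genes called lower and 446 nt in the others, and the median GC content was 50.7% and 51.0%. The median share of coding 50-base stretches found in other transcripts was 47.5% in the genes called lower and 49.1% in the others. Across the 84 genes the correlation with the log2 fold change was −0.092 for coding length, −0.23 for GC content and 0.023 for shared sequence (Pearson's r, description only). Coding length correlated more with the log2 ratio of control replicate 1 to control replicate 3, at −0.29. Over 3830 abundant genes that value was −0.26, so a higher ratio in shorter genes was not particular to ribosomal protein genes. The part of length in the control pattern was not tested. With offsets for GC content and coding length, 44 genes were called lower and 0 higher. The median of all genes also moved, from 0.053 to −0.055. The ribosomal protein median minus that of all genes was −0.27, against −0.29 without the offsets. The share of all genes called with the offsets was not counted.

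Groups of proteins by position in the ribosome showed mixed values. Beside them, 33.3% of the tested ribosomal protein genes, 19% of all tested genes and 38.3% of abundant genes were called lower. Of the stalk group, RPLP0, RPLP1, RPLP2 and RPL12, none of 4 was called, and their median log2 fold change was −0.079. RPLP0, the stalk base, had 2442, 2356 and 2750 CPM in knockout libraries and 3103, 2805 and 2052 CPM in control libraries, which overlapped. Of 8 proteins at the exit tunnel, 3 were lower, namely RPL35, RPL19 (log2 fold change −0.61) and RPL23A (−0.40). RPL4, RPL17, RPL22, RPL26 and RPL39 were not called. RPL4, a tunnel protein with levels among the highest counts, had 2263, 2222 and 2542 CPM in knockout libraries and 2734, 2948 and 2649 CPM in control libraries, without overlap, and missed the threshold (log2 fold change −0.25 ± 0.09, edgeR adjusted p = 0.0573).

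Of 6 tested proteins listed for the small-subunit head and decoding region, 3 were lower, among them RPS15 and RPS2, and RPS3, RPS23 and RPS25 were not called. This group is small, and 33.3% of the tested ribosomal protein genes, 19% of all tested genes and 38.3% of abundant genes were called lower. RPS2, at the mRNA entry channel, had 1221, 1182 and 1314 CPM in knockout libraries and 1602, 2322 and 1674 CPM in control libraries. The groups did not overlap. RPS3, which also lies at the entry channel, had 608, 605 and 715 CPM in knockout libraries and 767, 504 and 347 CPM in control libraries. It thus had the wide control range of RPS12 and not the gap between groups of RPS2.

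RPL5 and RPL11 bind the 5S ribosomal RNA, and outside the ribosome the complex inhibits MDM2 and so stabilises p53. RPL11 had 385, 371 and 423 CPM in knockout libraries and 511, 568 and 583 CPM in control libraries (log2 fold change −0.50 ± 0.10, edgeR adjusted p = 0.00383). RPL5 had 690, 678 and 752 CPM in knockout libraries and 845, 725 and 624 CPM in control libraries and was not called (log2 fold change −0.051 ± 0.12, edgeR adjusted p = 0.765). Only RPL11 was called, and the difference between the 2 genes was not tested.

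Of 10 genes mutated in Diamond-Blackfan anaemia, a failure of red cell production, 3 were lower, RPS26, RPL11 and RPS24 (log2 fold change −0.34). That is near the 33.3% of the tested ribosomal protein genes, beside 19% of all tested genes and 38.3% of abundant genes. RPS7, RPS10, RPS19, RPL5, RPL15 and RPL35A were among those not called. RPS19, the gene most often mutated in the disease, had 587, 558 and 653 CPM in knockout libraries and 781, 638 and 412 CPM in control libraries, with a log2 fold change of −0.027 ± 0.19. RPS6, the substrate of S6 kinase, had 860, 877 and 980 CPM in knockout libraries and 1161, 1214 and 1142 CPM in control libraries (log2 fold change −0.37 ± 0.09, edgeR adjusted p = 0.0107). RPSA, a small-subunit protein also known as the laminin receptor, had 1814, 1703 and 2015 CPM in knockout libraries and 2722, 2597 and 2114 CPM in control libraries (log2 fold change −0.43 ± 0.12, edgeR adjusted p = 0.0144). Neither gene overlapped between groups, but RPS6 lost its call without knockout replicate 1 (adjusted p = 0.0770) or 2 (0.0715), and RPSA likewise (0.0655 and 0.0837). RPS24 lost its call in the same way (edgeR adjusted p = 0.152 and 0.102). In these fits the log2 fold changes were −0.34 and −0.35 for RPS6, −0.41 and −0.37 for RPSA, and −0.28 and −0.34 for RPS24.

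RPS27A is made as a fusion to ubiquitin, and FAU, whose symbol the rule does not cover, gives a small-subunit protein fused to a ubiquitin-like one. RPS27A had 503, 512 and 558 CPM in knockout libraries and 688, 395 and 325 CPM in control libraries and was not called. FAU had a log2 fold change of −0.33 and was not called either (edgeR adjusted p = 0.216). RACK1, a scaffold protein on the small-subunit head, was lower, at 983, 972 and 1084 CPM in knockout libraries and 1313, 1690 and 1304 CPM in control libraries (log2 fold change −0.50 ± 0.12, edgeR adjusted p = 0.00759).

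Of 7 tested paralogs, 3 were lower and none was higher: RPL36AL, RPL26L1 (log2 fold change −0.45) and RPL7L1 (−0.28). The share called lower was 33.3% over the tested ribosomal protein genes, 19% over all tested genes and 38.3% over abundant genes. RPL36AL had 38.9, 44.9 and 41.3 CPM in knockout libraries and 57.1, 68.8 and 77.4 CPM in control libraries (edgeR adjusted p = 0.00225). Its coding sequence is 89.9% identical to that of RPL36A, and both genes lay wholly below their controls. RPL36AL had 21.9%, 27.6% and 20.8% of the RPL36A level in knockout libraries and 22.2%, 18.3% and 18.2% in control libraries, which overlapped. RPL26L1 lost its call without knockout replicate 1 or 2 (edgeR adjusted p = 0.107 and 0.108), and RPL7L1 without any one knockout library (0.147, 0.171 and 0.108). In these fits the log2 fold change was −0.40 and −0.40 for RPL26L1 and −0.28, −0.26 and −0.30 for RPL7L1.

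RPL22L1, 74.3% identical to RPL22 in coding sequence, had 56.2, 53.5 and 66.0 CPM in knockout libraries and 109, 56.3 and 46.2 CPM in control libraries. Control replicate 1 was the only library outside a narrow range, and the gene was not called (log2 fold change −0.27 ± 0.26). RPS27L, a p53 target whose coding sequence is 77.8% identical to that of RPS27, had 34.4, 34.1 and 34.7 CPM in knockout libraries and 54.6, 32.8 and 29.1 CPM in control libraries and was not called. RPL39L, 94.8% identical to RPL39, ran from 5.59 to 8.42 CPM in knockout and from 5.52 to 9.54 CPM in control libraries. RPL3L, a paralog typical of striated muscle, stayed under 1 CPM in every library.

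Levels per kilobase of coding sequence spanned a wide range, although the proteins are needed in matched amounts. Over the 77 core genes the median level was 1003 CPM per coding kilobase in knockout libraries and 1200 in control libraries. RPL41, the shortest of the proteins, was the highest at 4293 CPM per coding kilobase in knockout and 4582 in control libraries. RPS28 was the lowest at 202 in knockout and 188 in control libraries. RPS26 stood at 331 CPM per coding kilobase in knockout libraries and 992 in control libraries. Short coding sequences inflate this measure because untranslated bases also give reads.

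Other mRNAs with the same 5′ tract did not move together. Of 22 such genes, 4 were lower and 2 higher, with a median log2 fold change of −0.079. The shares over all tested genes were 19% lower and 21.1% higher, and over abundant genes 38.3% and 11.6%. PABPC1, the poly(A)-binding protein, had 1507, 1491 and 1599 CPM in knockout libraries and 1974, 2661 and 3095 CPM in control libraries (log2 fold change −0.75 ± 0.14, edgeR adjusted p = 0.00264). NPM1, a nucleolar chaperone, had a log2 fold change of −0.64, and VIM, the filament protein vimentin, was higher at 1.10. Among regulators of these mRNAs, 6 of 16 were lower, a share near that of abundant genes, and none higher. The lower regulators included HNRNPD (log2 fold change −0.71), the kinase MTOR (−0.47), the translational repressor EIF4EBP2 (−0.45) and LARP1 (−0.41).

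Factors that fold, import and assemble ribosomal proteins were also among the called genes. Of 23 chaperones and import factors, 9 were lower and none higher, with a median log2 fold change of −0.31. That lower share was near the 38.3% of abundant genes and above the 19% of all tested genes. LYAR, a nucleolar protein, had a log2 fold change of −1.24. RRS1, which loads the 5S complex, had one of −0.85, and GRWD1, a chaperone of RPL3, one of −0.80. Of 10 ribosome surveillance genes, 5 were lower, among them the ubiquitin ligases ZNF598 (−0.67) and UBE2O (−0.53), and 1 was higher, the ligase RNF14 (0.76).

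RNA polymerase I and rRNA-processing genes had a median log2 fold change of −0.56, with 19 of 28 lower and none higher. UTP14A, a component of the small-subunit processome, had 26.4, 27.2 and 26.4 CPM in knockout libraries and 91.8, 99.9 and 103 CPM in control libraries (log2 fold change −1.88 ± 0.11, edgeR adjusted p = 2.28e-06). BOP1 and NOP2, both of large-subunit assembly, had log2 fold changes of −1.29 and −1.28. Of 81 mitochondrial ribosome genes, 36 were lower and none higher, with a median of −0.31. Beside both lists, 19% of all tested genes and 38.3% of abundant genes were lower. MRPS34 and MRPL4, 2 of the 3 with the smallest p, had log2 fold changes of −1.15 and −1.06.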

How the data were processed

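RNA-seq of 3 knockout and 3 control libraries was used. The deposited table holds raw counts per gene, made by the authors. Per the labels' protocols, libraries were made from total RNA with a SMARTER mRNA kit. Per the submitters' processing notes, the hg19 build was named. Which aligner, counter and annotation were used, and whether strand counted, was not given in the sources used here, so overlapping genes, paralogs and pseudogenes can share reads. Of 25202 rows, 19974 had an Ensembl ID (19883 with a symbol) and 5228 were loci added by the authors' pipeline.

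Counts were tested in R 4.3.3 with edgeR 4.0.16 (filterByExpr, TMM, quasi-likelihood, Benjamini-Hochberg over 16331 genes). A second fit used the summed ribosomal protein counts as library size. CPM are TMM-scaled, with SD over 3 libraries; log2 fold changes carry an SE. TMM factors were 1.08, 1.07 and 1.04 in knockout and 0.955, 0.935 and 0.925 in control libraries. The biological coefficient of variation was 17.6%. No libraries agreed within sampling noise. Coding lengths and 50-base stretches came from GENCODE 29, which is on another build than the counts. Fits were tested on simulated data. Alternatives included DESeq2 1.42.0 and limma 3.58.1. The genes described and all lists were chosen with earlier results of these data known. Genes named were the largest called falls, paralog pairs, role groups, genes called against the sum and the most significant called genes of each context list; LARP1, RPL6, RPL14 and RPS21 were chosen after their values were seen. Values of some genes are not reported here, and the figures with gene labels leave them out; they remain in the counts and tests.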

Additional observations from a re-analysis of the deposited data

How the results depend on the processing

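Counts of called ribosomal protein genes depended on scaling and on single libraries of either group. The direction of the called falls did not turn in any setting run. Beside 28 lower and 0 higher, upper-quartile scaling gave 22 and 1, library size alone 18 and 1, cyclic loess 11 and 4, offsets for GC content and coding length 44 and 0, DESeq2 38 and 0, and the replicate block 23 and 1. The higher genes were RPL37 under the first 2 of these, RPL3, RPL13A, RPL37 and RPS12 under cyclic loess and RPS12 under the block. The share of all genes called was not counted under these settings. In the large subunit, cyclic loess gave 7 lower and 3 higher, the offsets 29 lower, and library size alone and upper-quartile scaling 1 higher each. In the small subunit, library size alone gave 6 lower, cyclic loess 4 lower and 1 higher, an adjusted p below 0.01 gave 6 lower, and the replicate block 1 higher. The large-subunit median was −0.088 with library size alone and 0.022 with cyclic loess. The median of all genes was 0.053 with TMM, 0.16 under upper quartiles and 0.24 under library size alone. The ribosomal protein median lay 0.29 below it under each of these. Such scalings move all genes by nearly the same amount, so they cannot change that gap. The ribosomal protein median minus that of all genes was −0.27 with the offsets and 0.047 under cyclic loess. It was −0.19 without control replicate 1 and −0.40 without control replicate 3. Causes of these shifts were not tested.

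Against the summed counts, 5 lower and 2 higher became 5 and 5 with no filter, 7 and 4 with a filter of 1 CPM in 3 libraries, 10 and 6 with DESeq2, 5 and 6 with limma-voom, 8 and 2 without added loci, and 3 and 0 at an adjusted p below 0.01. In the large subunit the numbers were 6 lower and 4 higher with DESeq2, 1 and 0 at 0.01, and 3, 2, 3 and 2 higher with no filter, the CPM filter, limma-voom and the replicate block. In the small subunit they were 4 lower with the CPM filter, DESeq2 and without added loci, 2 higher with no filter, the CPM filter and DESeq2, 3 higher with limma-voom and 0 at 0.01. Under the replicate block the higher genes against the summed counts were RPL39, RPLP1 and RPS12, and RPL37 was not called (edgeR adjusted p = 0.0696). Leaving out each library in turn gave 19 to 45 lower and 0 to 11 higher in all, 13 to 29 and 0 to 5 in the large and 6 to 16 and 0 to 6 in the small subunit, with medians of −0.35 to −0.13, −0.36 to −0.22 and −0.33 to −0.0003. Against the summed counts the ranges were 3 to 16 and 0 to 23 in all, 1 to 10 and 0 to 10 in the large and 2 to 6 and 0 to 13 in the small subunit. Libraries with the same replicate number correlated at 0.042, −0.071 and −0.073 in their deviations from group means, so the numbers did not pair them. Depth did not limit the core genes, whose lowest mean was 39.0 CPM, but it limited RPL3L and RPL10L.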
